A study of Mus musculus with 6 samples.

Results

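The clustered replication-dependent histone genes of mouse were examined as a group in bulk RNA-seq of HOXA9-immortalized granulocyte-macrophage progenitors (iGMPs). The members were all gene symbols that begin with Hist1h, Hist2h, Hist3h or Hist4h, which gave 70 of the 34199 symbols counted. By cluster, 56 belong to Hist1 on chromosome 13, 10 to Hist2 on chromosome 3, 3 to Hist3 on chromosome 11 and 1 (Hist4h4) lies on chromosome 6. By histone type, 6 belong to the linker histone H1, 20 to H2A, 19 to H2B, 12 to H3 and 13 to H4. The annotation marks 3 of them as pseudogenes without a stop codon (Hist1h2aj, Hist2h3c2 and Hist3h2bb-ps). The rule used names alone, and it was set with earlier results of these data known.

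Replication-dependent histone genes supply the histones that wrap newly made DNA, and their mRNAs accumulate in S phase and are removed when DNA synthesis stops. Most of these mRNAs end in a stem-loop bound by the stem-loop binding protein SLBP instead of a poly(A) tail, although some histone genes also yield longer, polyadenylated transcripts. H2A, H2B, H3 and H4 build the nucleosome core and H1 binds the linker DNA. The chaperone CAF-1, of which CHAF1B is a subunit, places new H3 and H4 on DNA behind the replication fork.

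All cells were of C57Bl/6 origin and are called Lys-GFP-ER-HoxA9 cells: they carry a fusion of HOXA9 with the estrogen receptor ligand-binding domain, which is active only with estradiol, and a lysozyme-driven GFP reporter. In the CAF-1 OFF group, IPTG at 500 µM induced a short hairpin RNA against Chaf1b for 24 h in medium with estradiol at 150 ng/ml. The control group received IPTG for 24 h with estradiol. The HOXA9 OFF group was washed free of estradiol and cultured without it for 24 h. Each group had 2 libraries. The hairpin in the control and HOXA9 OFF cells, the use of IPTG in HOXA9 OFF and the clone behind each library are not given in the labels. The study worked with clonal lines, so clone and condition cannot be told apart here.

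Gene counts per library ran from 16773560 to 25170898, so 3 counts were worth 0.118 to 0.182 CPM, the count of a gene relative to its library total. The targeted gene Chaf1b was at 17.8 and 12.1 CPM under CAF-1 OFF, 89.9 and 105 CPM in control, and 64.6 and 61.3 CPM under HOXA9 OFF. All 10 granulocyte-macrophage progenitor markers examined, among them Mpo, Elane and Kit, were detected in every library, with a summed level of 16450 to 18210 CPM under CAF-1 OFF, 12510 to 15580 CPM in control and 12450 to 15480 CPM under HOXA9 OFF. The CAF-1 OFF sums lay above those of control and HOXA9 OFF, which overlapped each other. Single markers moved between control and HOXA9 OFF even so. In HOXA9 OFF against control 6 of the 10 were called (edgeR), where 22% of the 12460 genes tested were. Fcgr3 was higher. Flt3, Cd34, Kit, Myb and Ctsg were lower, with log2 fold changes from -6.05 for Flt3 to -0.68 for Myb and Ctsg. In CAF-1 OFF against control 0 of the 10 were called, where 0.0321% of all genes were. Of the 10, 8 had a positive log2 fold change there, and Elane (1.12) and Mpo (0.53) were higher at an unadjusted p under 0.05 (edgeR). Of the markers of other cells, the 3 mast cell markers summed to 228.5 to 585.9 CPM under CAF-1 OFF, 164.6 to 202.2 CPM in control and 239.9 to 305.8 CPM under HOXA9 OFF, and the 3 megakaryocyte markers to 35.2 to 73.3, 24.2 to 27.2 and 65.04 to 76.3 CPM in the same order. The erythroid markers summed to at most 4.78 CPM and the B cell markers to at most 7.58 CPM in any library, and the T cell markers Cd3e and Cd3g were at 0 in all 6. The third T cell marker, Lck, was at 4.05 and 3.14 CPM under CAF-1 OFF, 1.77 and 4.70 CPM in control and 0.338 and 0.667 CPM under HOXA9 OFF. The 3 stroma and endothelial markers, nearly all of it Pecam1, summed to 285.8 to 308 CPM under CAF-1 OFF, 235.7 to 241.3 CPM in control and 419.5 to 443.3 CPM under HOXA9 OFF. Lck was called lower (log2 fold change -2.68) and Pecam1 higher (0.85) in HOXA9 OFF against control (edgeR FDR 0.018 and 0.00175). The part of these differences in the histone values was not tested. In bulk RNA, fewer cells of a type (for example fewer cells in S phase) and less RNA per cell cannot be told apart.

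The sequence element that defines this class of mRNA was searched in the genome, since it bears on how such RNAs enter a library. The element was taken as 16 bases with the letters GGNNNTTTNNANNNCC in which the first 6 bases pair with the last 6 (G with T allowed) around a 4-base loop, on the sense strand within 150 bases after the stop codon. It was found in 59 of the 67 members with an annotated stop codon (88.1%) and in 0.283% of all 21930 protein-coding genes. The first base lay 22 to 59 bases after the stop codon, with a median of 32. The 3 non-members with a match included H2afx, a histone gene outside the clusters. The sequence took 6 forms among the members, shown here 5′ to 3′ with the paired stem in capitals and the loop in lower case. The first form was present in 37 members, the second in 9, the third in 8, the fourth and the fifth in 2 each and the sixth in 1.
Form 1: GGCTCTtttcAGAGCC
Form 2: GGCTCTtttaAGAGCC
Form 3: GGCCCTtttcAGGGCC
Form 4: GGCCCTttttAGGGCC
Form 5: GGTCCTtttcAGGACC
Form 6: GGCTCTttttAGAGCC

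The stem-loops of the members whose values carry the results below are given with their positions in the NCBIM37 (mm9) build, again with the stem in capitals. Hist2h2be, an H2B gene, had no match in the window searched.
Hist1h1c, chr13:23831381-23831396, plus strand: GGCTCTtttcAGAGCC
Hist1h2bc, chr13:23776516-23776531, plus strand: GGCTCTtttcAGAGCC
Hist3h2a, chr11:58768674-58768689, plus strand: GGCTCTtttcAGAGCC
Hist1h4i, chr13:22132835-22132850, minus strand: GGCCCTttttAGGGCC
Hist1h3c, chr13:23836916-23836931, minus strand: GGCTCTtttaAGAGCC
Hist4h4, chr6:136752519-136752534, minus strand: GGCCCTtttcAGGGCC

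Histone genes of this class gave few reads. The 70 members held 1986 and 2005 counts in the CAF-1 OFF libraries, 1588 and 1211 in the control libraries and 1456 and 1147 in the HOXA9 OFF libraries. No count was seen for 9 members (Hist1h2ap, Hist1h2ba, Hist1h2bq, Hist1h2br, Hist1h4m, Hist2h2aa1, Hist2h2aa2, Hist2h3b and Hist3h2ba). For the 4 of these with sequence of their own (Hist1h2ba, Hist1h4m, Hist2h3b and Hist3h2ba), a count of 0 allows up to 0.118 to 0.182 CPM of uniquely placed reads per library, depending on its depth. A further 40 members had 1 to 50 counts over the 6 libraries. Only 22 members passed the expression filter, and the 48 others had at most 51 counts in all, with a median of 13.

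Many copies of the core histone genes are near-identical, those of H1 less so, and the counting program drops reads with more than 1 alignment. Of all 50-base stretches in the exons of a member, a median of 46.4% also occurred in another member. By type the median was 2.16% for H1, 67.1% for H2A, 49.7% for H2B, 51.8% for H3 and 43.0% for H4. In 6 members every such stretch was shared, and these 6 held 1 count in total. For members with shared stretches the levels are therefore lower bounds, whereas Hist2h2be shared 0% and Hist3h2a 2.16%. Of the 9 members at 0 counts, 5 could not have received a uniquely placed read of that length, so their 0 sets no limit. The median was 56.7% in the members not tested and 37.5% in those tested.

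Most reads of the class came from 5 members, namely Hist1h1c, Hist2h2be, Hist1h4i, Hist1h2bc and Hist3h2a, which together held 75.9% of the 9393 member counts. Hist1h1c alone held 37.4%, Hist2h2be 19.0%, Hist1h4i 9.50%, Hist1h2bc 5.37% and Hist3h2a 4.68%. Per kilobase of exon, the mean level over the 6 libraries was 19.0 CPM per kb for Hist1h1c, 14.1 for Hist1h4i, 5.75 for Hist1h2bc, 5.71 for Hist2h2be and 1.86 for Hist3h2a. Among the other members, which were named after their values were seen, the highest levels per length were 3.32 CPM per kb for the H4 gene Hist1h4d and 2.47 for the H2B gene Hist1h2bj, both above Hist3h2a. The 5 genes made up 76.3% and 80.3% of the member counts of the CAF-1 OFF libraries, 79.1% and 66.4% of those of control, and 73.9% and 76.0% of those of HOXA9 OFF. The second control library stood apart, with a 95% Wilson interval of 63.7 to 69.0% against 77.0 to 81.0% for the first. Such intervals and the limits for 0 counts cover counting error only.

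Summed over all 70 members, the level was 103.1 and 101.5 CPM under CAF-1 OFF, 62.3 and 70.3 CPM in control and 70.2 and 69.5 CPM under HOXA9 OFF. Both CAF-1 OFF libraries lay above all 4 others, and the control and HOXA9 OFF libraries overlapped. The ratio of means was 1.54 for CAF-1 OFF against control, 1.05 for HOXA9 OFF against control and 1.46 for CAF-1 OFF against HOXA9 OFF. The sign of the HOXA9 OFF difference, 0.075 as a log2 ratio, turned to -0.008 without control replicate 1 and to -0.006 with library size alone. The 5 genes with the most counts made up most of the difference. Their sum was 78.7 and 81.5 CPM under CAF-1 OFF, 49.3 and 46.6 CPM in control and 51.9 and 52.8 CPM under HOXA9 OFF. The other 65 members summed to 24.5 and 19.99 CPM under CAF-1 OFF, 13.0 and 23.6 CPM in control and 18.3 and 16.7 CPM under HOXA9 OFF. For these 65 the control libraries spanned the values of the CAF-1 OFF library with the lower sum and of both HOXA9 OFF libraries. No test was run on the sums, since 2 libraries against 2 cannot give an exact two-sided permutation p below 0.333.

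**Figure D1:**
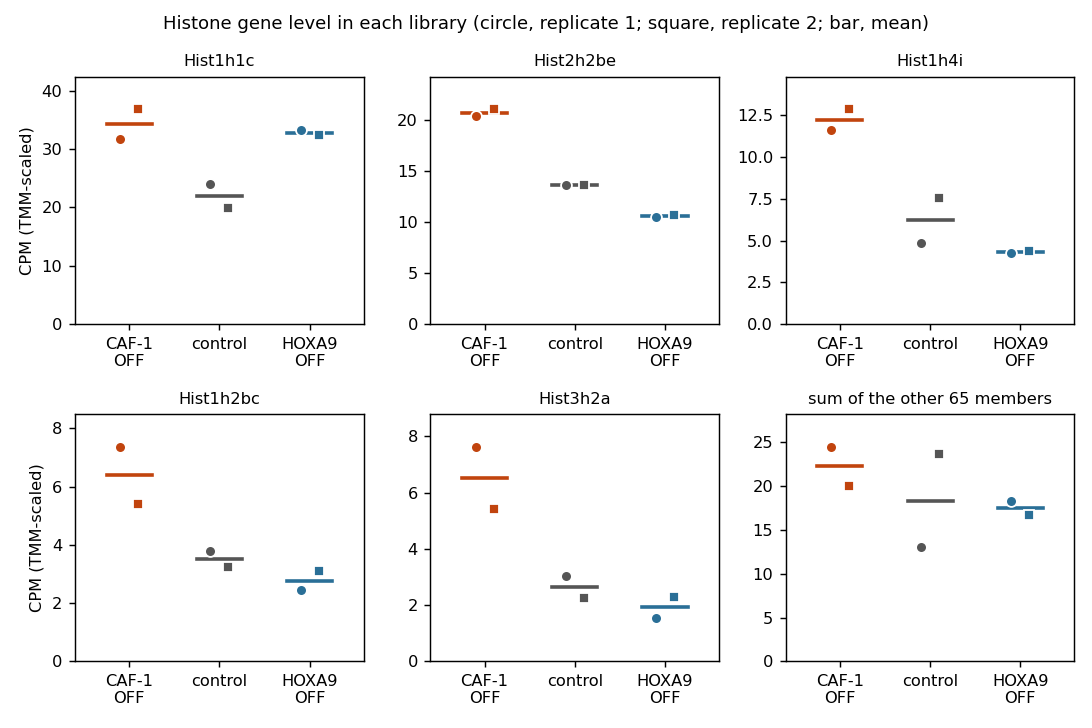
Level in CPM (TMM-scaled, linear axes from 0) of the 5 histone genes with the most counts and of the sum of the other 65 members in each library. Circles are replicate 1, squares replicate 2 and bars the mean of 2 libraries. The CAF-1 OFF libraries lie above both control libraries for each of the 5 genes, and the control libraries of the last panel, at 13.0 and 23.6 CPM, enclose both HOXA9 OFF libraries.

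CAF-1 OFF was compared with control to ask what 24 h of CAF-1 loss did to histone mRNA levels. No member passed a fold of at least 1.5 with a false discovery rate (FDR) under 0.05 in the edgeR quasi-likelihood test, in a comparison in which 0.0321% of the 12460 genes tested did. At an unadjusted p under 0.05, 5 members were higher and 0 lower, against 6.48% and 4.2% of all genes. These were the 5 genes with the most counts, with log2 fold changes from 0.60 to 1.30 and FDRs from 0.238 to 0.367 (edgeR). The DESeq2 Wald test and the edgeR exact test each called 1 member, Hist1h1c, while calling 1.54% and 1.95% of all genes. Of the 22 members tested, 19 had a positive log2 fold change, with a median of 0.42 against -0.004 for all genes. Both CAF-1 OFF libraries lay above both control libraries in 8 of the 22, and below them in 0, against 20.1% and 20% of all genes. For the 17 tested members outside the 5, the log2 fold changes ran from -0.23 to 1.24 with standard errors of 0.44 to 1.03, and the lowest FDR was 0.474 (edgeR).

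HOXA9 OFF was compared with the same control libraries, so the values of both comparisons are given side by side and are not independent. In this comparison 22% of the 12460 genes were called and 0 of the 22 members tested (edgeR quasi-likelihood test, fold of at least 1.5, FDR under 0.05). At an unadjusted p under 0.05, 1 member was higher (Hist1h1c) and 1 lower (Hist2h2be), against 21.7% and 20.2% of all genes. DESeq2 and the edgeR exact test also called 0 members. The median log2 fold change of the members was -0.18 against -0.003 for all genes, and 10 of the 22 were positive. Both HOXA9 OFF libraries lay above both control libraries in 2 members and below them in 6, against 35.1% and 35.9% of all genes.

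Between CAF-1 OFF and HOXA9 OFF, 4 members were called, all higher in CAF-1 OFF: Hist1h4i, Hist2h2be, Hist1h2bc and Hist3h2a. In this comparison 22.1% of the 12460 genes were called and 9.56% were called higher. All 4 encode core histones. The log2 fold changes were positive in 18 of the 22 members, with a median of 0.58 against 0.001 for all genes. Both CAF-1 OFF libraries lay above both HOXA9 OFF libraries in 10 of the 22 and below them in 0, against 33% and 33.7% of all genes. Without CAF-1 OFF replicate 1, or without HOXA9 OFF replicate 1, the count of called members was 2 (Hist1h4i and Hist2h2be), and without HOXA9 OFF replicate 2 it was 3. Such a fit assumes that the remaining library of the group varies like the others.

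**Figure D2:**
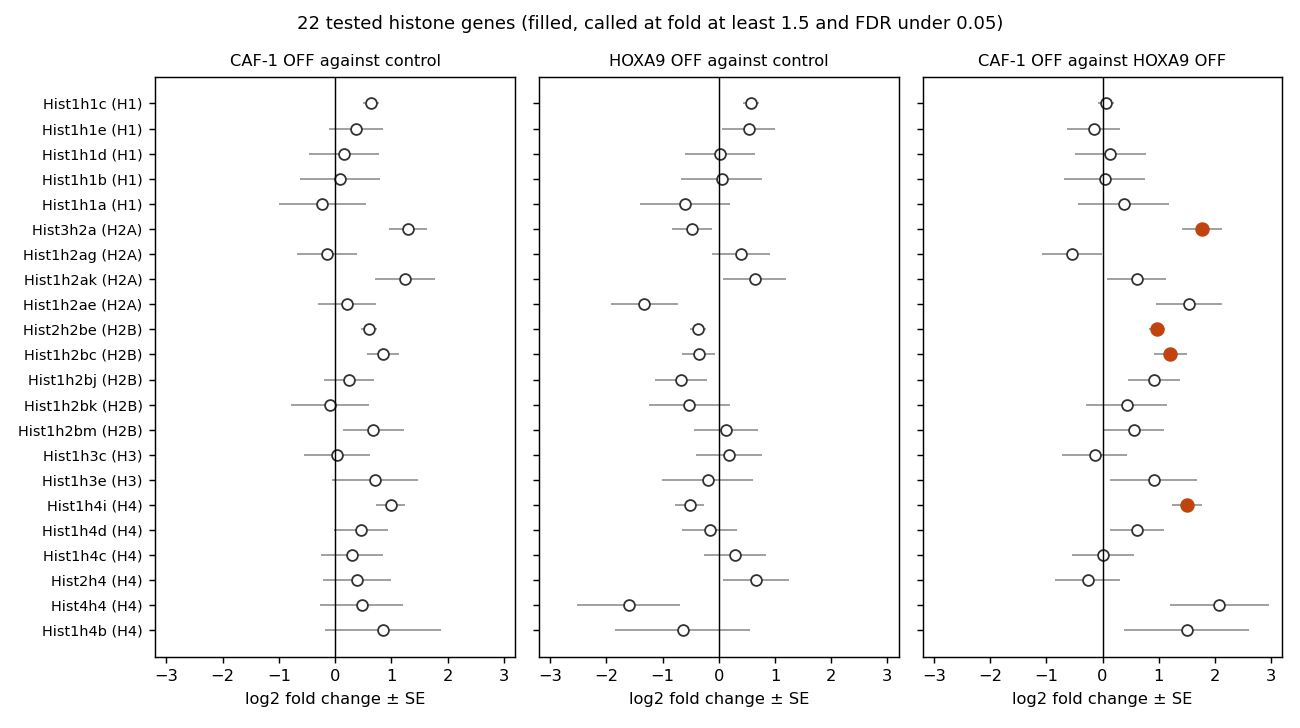
Log2 fold change with its standard error (edgeR, 2 libraries per group) of the 22 tested histone genes in the 3 comparisons, ordered by histone type. Filled points passed a fold of at least 1.5 and an FDR under 0.05: none in the first 2 panels and 4 in the comparison of CAF-1 OFF with HOXA9 OFF. Members with few counts have wide error bars, up to 1.21.

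Linker histone H1 was represented almost wholly by Hist1h1c (chr13:23830676-23832235, plus strand, 1 exon of 1560 bases), which encodes the subtype also called H1.2. Its level was 31.7 and 36.8 CPM under CAF-1 OFF, 24.0 and 19.96 CPM in control and 33.2 and 32.4 CPM under HOXA9 OFF. CAF-1 OFF and HOXA9 OFF both lay above control and overlapped each other. The log2 fold change was 0.64 ± 0.15 (SE) in CAF-1 OFF with an edgeR FDR of 0.238, and 0.58 ± 0.15 in HOXA9 OFF with an edgeR FDR of 0.027. The latter was just under the fold minimum, which is 0.585 on the log2 scale. Without control replicate 1, Hist1h1c just passed both limits in HOXA9 OFF, at a log2 fold change of 0.71 and an edgeR FDR of 0.0498. Its edgeR FDR was 0.163 without control replicate 2, 0.117 without HOXA9 OFF replicate 1 and 0.0922 without HOXA9 OFF replicate 2, and the adjusted p ran from 0.00822 (DESeq2) to 0.163 over all alternatives. CAF-1 OFF and HOXA9 OFF differed by 0.06 ± 0.15 for this gene (edgeR FDR 0.78), and by -0.03 without CAF-1 OFF replicate 2. The other 5 H1 genes had at most 1.67 CPM per kb and summed to 3.84 and 4.45 CPM under CAF-1 OFF, 2.12 and 5.74 CPM in control and 4.44 and 3.45 CPM under HOXA9 OFF. They include the somatic subtypes Hist1h1a, Hist1h1b, Hist1h1d and Hist1h1e, and the testis subtype Hist1h1t, which had 2 counts in all.

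Among the H2A genes, Hist3h2a (chr11:58768187-58770176, plus strand, 1990 bases) had the most counts, 440 of 929. Its level was 7.63 and 5.42 CPM under CAF-1 OFF, 3.02 and 2.26 CPM in control and 1.54 and 2.30 CPM under HOXA9 OFF. CAF-1 OFF lay above both other groups, which overlapped. Its log2 fold change was 1.30 ± 0.34 in CAF-1 OFF against control (edgeR FDR 0.283) and -0.47 ± 0.36 in HOXA9 OFF against control (edgeR FDR 0.359). The latter was -0.78 without HOXA9 OFF replicate 2, -0.21 without HOXA9 OFF replicate 1 and -0.25 without control replicate 1. Against HOXA9 OFF it was higher in CAF-1 OFF by 1.77 ± 0.35 (edgeR FDR 0.0122). Its exons overlap those of Trim17 on the same strand, and reads in a shared stretch may not have been assigned. Trim17 itself had 7 and 16 counts under CAF-1 OFF, 11 and 7 counts in control and 5 and 3 counts under HOXA9 OFF. The other 19 H2A genes summed to 3.95 and 4.71 CPM under CAF-1 OFF, 4.16 and 4.003 CPM in control and 4.002 and 3.76 CPM under HOXA9 OFF, and no group stood clearly apart.

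H2B reads came mainly from Hist2h2be (chr3:96025044-96027661, plus strand, 2618 bases) and Hist1h2bc (chr13:23776068-23784357, plus strand, 2 exons and 736 exonic bases). Hist2h2be was at 20.4 and 21.0 CPM under CAF-1 OFF, 13.6 and 13.6 CPM in control and 10.5 and 10.7 CPM under HOXA9 OFF. The 3 groups did not overlap and the libraries of each were close. Its log2 fold change was 0.60 ± 0.14 in CAF-1 OFF (edgeR FDR 0.251) and -0.37 ± 0.15 in HOXA9 OFF (edgeR FDR 0.103), both against control. Between CAF-1 OFF and HOXA9 OFF it differed by 0.97 ± 0.15 (edgeR FDR 0.00468). Hist1h2bc was at 7.37 and 5.42 CPM under CAF-1 OFF, 3.81 and 3.25 CPM in control and 2.46 and 3.09 CPM under HOXA9 OFF, so its groups did not overlap either. The corresponding log2 fold changes were 0.85 ± 0.29 (edgeR FDR 0.367), -0.35 ± 0.29 (edgeR FDR 0.407) and, between CAF-1 OFF and HOXA9 OFF, 1.21 ± 0.29 (edgeR FDR 0.0229). Its HOXA9 OFF value against control was -0.20 without HOXA9 OFF replicate 1 and -0.52 without HOXA9 OFF replicate 2. The other 17 H2B genes summed to 5.19 and 3.75 CPM under CAF-1 OFF, 2.83 and 4.70 CPM in control and 3.04 and 3.33 CPM under HOXA9 OFF.

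Histone H3 genes of the clusters, which encode the replication-coupled H3.1 and H3.2 proteins that CAF-1 carries, were the type with the fewest counts, 401 over 12 genes. Only Hist1h3c and Hist1h3e were tested. Hist1h3c (chr13:23836842-23837471), the H3 gene with the most counts, was at 1.19 and 0.456 CPM under CAF-1 OFF, 0.589 and 1.04 CPM in control and 0.964 and 0.848 CPM under HOXA9 OFF, and all groups overlapped. Its log2 fold change against control was 0.04 ± 0.59 for CAF-1 OFF and 0.18 ± 0.58 for HOXA9 OFF, with edgeR FDRs of 0.992 and 0.851. For CAF-1 OFF its sign reversed without CAF-1 OFF replicate 1 (-0.82) and without control replicate 1 (-0.33), and for HOXA9 OFF without control replicate 1 (-0.21). The summed H3 level was 5.92 and 3.95 CPM under CAF-1 OFF, 1.61 and 4.12 CPM in control and 2.56 and 2.67 CPM under HOXA9 OFF. CAF-1 OFF replicate 2 and control replicate 2 were thus alike, and no difference from control could be shown, while both CAF-1 OFF libraries lay above both HOXA9 OFF libraries.

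Among the H4 genes, Hist1h4i (chr13:22132685-22133221, minus strand, 537 bases) held 892 of 1353 counts. Its level was 11.6 and 12.9 CPM under CAF-1 OFF, 4.87 and 7.54 CPM in control and 4.24 and 4.36 CPM under HOXA9 OFF. The 3 groups did not overlap. The log2 fold change was 0.99 ± 0.26 in CAF-1 OFF (edgeR FDR 0.279) and -0.52 ± 0.26 in HOXA9 OFF (edgeR FDR 0.183), both against control. The HOXA9 OFF value was -0.82 without control replicate 1 and -0.18 without control replicate 2. Between CAF-1 OFF and HOXA9 OFF it was 1.51 ± 0.26 (edgeR FDR 0.00774). Hist4h4 (chr6:136752589-136752900), the single gene of the Hist4 cluster, was at 0.779 and 0.405 CPM under CAF-1 OFF, 0.196 and 0.696 CPM in control and 0.0964 and 0.182 CPM under HOXA9 OFF. Its HOXA9 OFF values rest on 2 and 3 counts, and no comparison passed (edgeR FDR 0.868, 0.229 and 0.121). Against control its CAF-1 OFF value of 0.47 ± 0.74 changed sign without CAF-1 OFF replicate 1 (-0.08) or control replicate 1 (-0.23). The other 12 H4 genes, Hist4h4 included, summed to 5.56 and 3.14 CPM under CAF-1 OFF, 2.32 and 5.05 CPM in control and 4.29 and 3.45 CPM under HOXA9 OFF.

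By type, the summed level of CAF-1 OFF over control was 1.48 for H1, 1.61 for H2A, 1.51 for H2B, 1.72 for H3 and 1.68 for H4. With the 5 genes of most counts left out, the ratio was 1.05 for H1, 1.06 for H2A, 1.19 for H2B and 1.18 for H4. It stayed at 1.72 for H3, none of whose genes is among the 5, where the libraries of both groups overlapped. HOXA9 OFF over control was 1.42 for H1 and below 1 for each core type, at 0.863 for H2A, 0.79 for H2B, 0.911 for H3 and 0.827 for H4. The libraries of HOXA9 OFF and control did not overlap for H1, H2A and H2B, and they overlapped for H3 and H4. Without the 5 genes this ratio was 1.00 for H1, 0.95 for H2A, 0.846 for H2B and 1.05 for H4. Whether H1 differed from the core types was not tested. CAF-1 OFF over HOXA9 OFF was 1.04 for H1, 1.87 for H2A, 1.91 for H2B, 1.89 for H3 and 2.03 for H4, and without the 5 genes it was 1.05 for H1, 1.12 for H2A, 1.40 for H2B and 1.12 for H4.

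**Figure D3:**
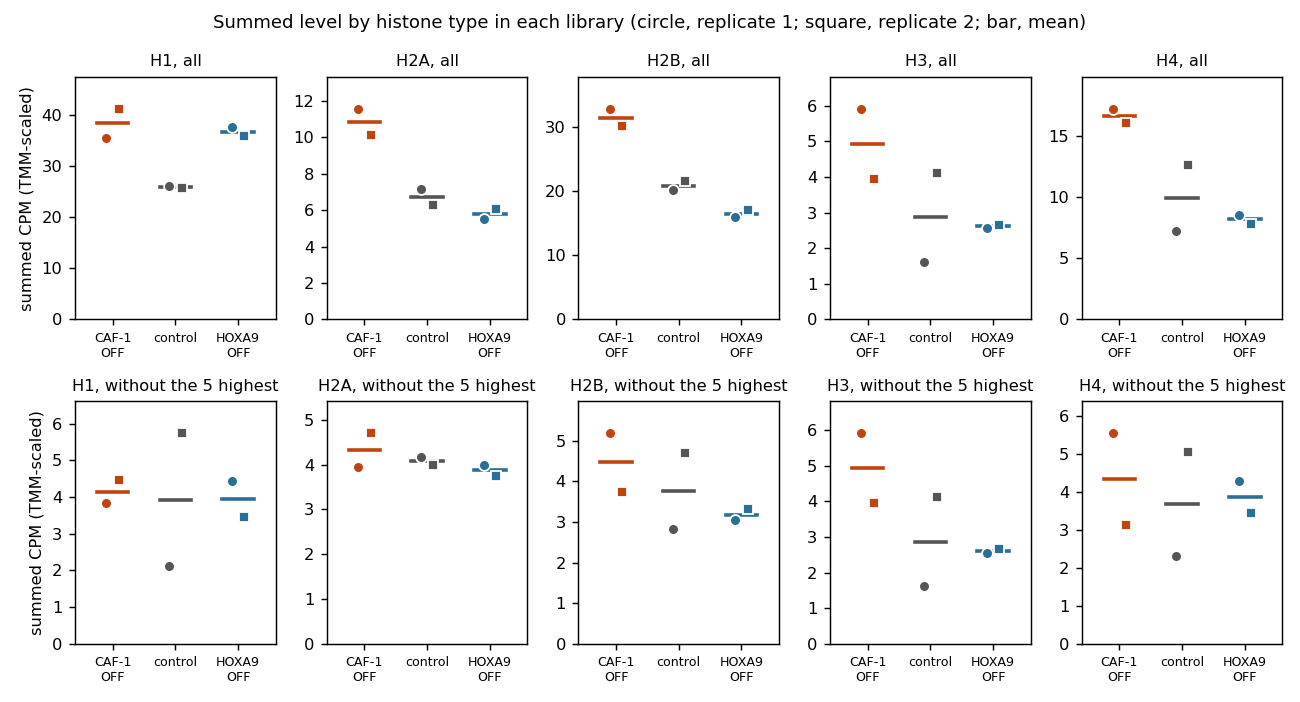
Summed level in CPM (TMM-scaled, linear axes from 0) of each histone type in each library, for all members (upper row) and without the 5 members with the most counts (lower row). Circles are replicate 1, squares replicate 2 and bars the mean of 2 libraries. The upper H1 panel has CAF-1 OFF and HOXA9 OFF above control, the upper H2A and H2B panels have CAF-1 OFF highest and HOXA9 OFF lowest, and in the lower row the control libraries of H1, H2B, H3 and H4 lie far apart.

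By cluster, the Hist1 genes summed to 72.8 and 73.1 CPM under CAF-1 OFF, 44.5 and 52.7 CPM in control and 57.0 and 55.3 CPM under HOXA9 OFF. Hist2 was at 21.9 and 22.3 CPM under CAF-1 OFF, 14.6 and 14.6 CPM in control and 11.6 and 11.8 CPM under HOXA9 OFF. Hist3 was at 7.63 and 5.67 CPM under CAF-1 OFF, 3.02 and 2.26 CPM in control and 1.54 and 2.30 CPM under HOXA9 OFF. CAF-1 OFF lay above control without overlap in these 3 clusters, at ratios of 1.5, 1.52 and 2.52. In HOXA9 OFF against control, Hist1 was higher and Hist2 lower without overlap, and Hist3 overlapped. Within Hist1, Hist1h1c was higher, at 33.2 and 32.4 CPM under HOXA9 OFF against 24.0 and 19.96 CPM in control. Hist1h4i and Hist1h2bc were lower without overlap, and the sum of the other 53 Hist1 genes overlapped. A few genes carried each cluster: Hist2h2be all but 138 of the 1920 Hist2 counts, and Hist3h2a all but 5 of the 445 Hist3 counts. The other 9 Hist2 genes were at 1.56 and 1.32 CPM under CAF-1 OFF, 0.981 and 0.928 CPM in control and 1.11 and 1.09 CPM under HOXA9 OFF. The 53 Hist1 genes besides Hist1h1c, Hist1h4i and Hist1h2bc summed to 22.1 and 18.0 CPM under CAF-1 OFF, 11.9 and 21.99 CPM in control and 17.1 and 15.4 CPM under HOXA9 OFF, so control overlapped both other groups.

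The 5 genes with the most counts shared a feature that the choice of members did not use. Each has a long annotated 3′ end in the GENCODE vM1 models, with 879 exonic bases after the stop codon in Hist1h1c, 2192 in Hist2h2be, 1544 in Hist3h2a, 322 in Hist1h2bc and 196 in Hist1h4i. The stem-loop began 25 bases after the stop codon in Hist1h1c, 42 in Hist3h2a and 31 in Hist1h4i, well before the annotated end. In Hist1h2bc it began 35 bases after the stop codon, inside the annotated intron. For Hist4h4, whose model ends at the stop codon, it lay outside the annotated model. A poly(A) signal of the letters AATAAA stood in the last 50 bases of Hist1h1c, Hist2h2be and Hist1h2bc, and in 16.4% of the 67 members with an annotated stop codon against 54.6% of protein-coding genes. Whether the counted reads came from stem-loop or polyadenylated transcripts cannot be read from counts per gene.

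A model with more than 1 exon or over 100 bases after the stop codon was present in 27 members. These held 83.5% of the member counts and summed to 86.7 and 87.5 CPM under CAF-1 OFF, 53.6 and 53.8 CPM in control and 57.6 and 57.8 CPM under HOXA9 OFF. All 4 members called between CAF-1 OFF and HOXA9 OFF were of this kind, out of 10 tested. In this comparison 22.1% of all genes were called and 9.56% were called higher. The 4 held 440 to 1782 counts each, against 34 to 152 for the 12 tested members without such a model. The part of read counts in this split was not tested. The 43 members with short models summed to 16.4 and 14.0 CPM under CAF-1 OFF, 8.72 and 16.5 CPM in control and 12.6 and 11.7 CPM under HOXA9 OFF, with 0 of 12 tested called and overlap between control and both other groups. Over all members the median of the mean levels was 0.298 CPM for long and 0.171 CPM for short models, and per kilobase it was 0.254 and 0.413 CPM per kb. Longer models also collect more reads at the same number of transcripts. How RNA was selected before library making (by poly(A) tail or by removal of ribosomal RNA) is not given in the sources used here. Of 15 RNAs without a poly(A) tail sought as a check, only Rnu73b was counted, at 1 to 7 counts per library, so the selection was not tested.

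**Figure D4:**
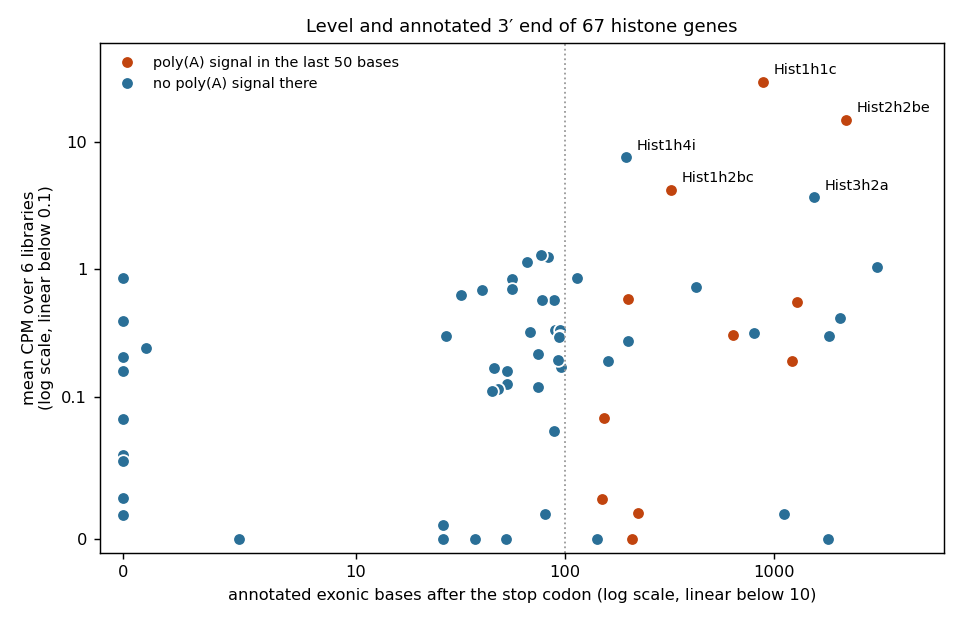
Mean level over the 6 libraries (CPM, log axis that is linear below 0.1) against the annotated exonic bases after the stop codon (log axis that is linear below 10) for the 67 members with an annotated stop codon. Each point is a gene, orange where a poly(A) signal stands in the last 50 bases of a transcript, and the dotted line marks 100 bases. The 5 named genes lie to the right of the line and at 3.70 CPM or more, and all other genes lie below 1.31 CPM on either side of it.

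In promoters from RefSeq (GRCm38.p6, from 250 bases before to 50 bases after the start), 61 members had an entry. The letters CCAAT were present on either strand in 85.2% of these against 41.1% of 27025 genes, and in all H1, H2A, H2B and H3 promoters but only 3 of 12 H4 promoters. TATAAA was present in 57.4% of the members against 15.7% of all genes. The octamer ATTTGCAT was present in 7 of 17 H2A and 7 of 16 H2B promoters and in 0 of the H1, H3 and H4 promoters, against 1.97% of all genes. These are matches of letters, and their part in the measured levels was not tested.

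Genes that make, process or degrade replication-dependent histone mRNA were examined beside the members. Of 30 such genes, all tested, 0 passed in CAF-1 OFF against control (edgeR), where 0.0321% of all genes did. The median log2 fold change was -0.001. At an unadjusted p under 0.05 (edgeR), Ccne2 (log2 fold change 0.395) was higher and Cpsf2 (-0.32) was lower. Slbp, which encodes the stem-loop binding protein, was at 185.6 and 173 CPM under CAF-1 OFF, 172.7 and 171.4 CPM in control and 181 and 154.4 CPM under HOXA9 OFF, and the HOXA9 OFF values enclosed those of control (edgeR FDR 0.896 and 0.84 against control). In HOXA9 OFF 1 of the 30 was called, Zcchc6, which encodes a terminal uridylyltransferase, at a log2 fold change of 0.83 ± 0.21 (edgeR FDR 0.0265), where 22% of all genes were called. Without control replicate 2, HOXA9 OFF replicate 1 or HOXA9 OFF replicate 2, the list held 0 calls. Between CAF-1 OFF and HOXA9 OFF, Zcchc6 was lower in CAF-1 OFF at -1.04 ± 0.21 (edgeR FDR 0.0133), and Lsm11, which encodes a U7 snRNP subunit used in histone mRNA 3′ processing, was higher by 0.59 ± 0.13 (edgeR FDR 0.0164). These 2 calls stand against 22.1% of all genes called, and the list held 0 without HOXA9 OFF replicate 1 and 1 without HOXA9 OFF replicate 2.

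DNA replication genes gave the S phase context. Of 27 tested, 0 passed in CAF-1 OFF against control (edgeR), where 0.0321% of all genes did. The median log2 fold change was -0.004, and summed levels were 7231 to 7334 CPM against 7120 to 7691 CPM. At an unadjusted p under 0.05 (edgeR), Rrm2 (log2 fold change 0.55) and Cdc6 (0.29) were higher and Ung (-0.29) was lower. In HOXA9 OFF against control 4 of the 27 (14.8%) were called, where 22% of all genes were called in either direction, all lower: Dut and Ung, which keep uracil out of DNA, Tyms, which makes thymidylate, and Gins2, a subunit of the replicative helicase. Their log2 fold changes ran from -0.77 for Dut to -0.61 for Tyms, and the list summed to 5739 to 6437 CPM under HOXA9 OFF. The median of the list was -0.29 against -0.003 for all genes, with 3 of the 27 positive, and without a fold minimum 11 of the 27 passed (edgeR), against 29.8% of all genes. The count of called genes was 1 without control replicate 2 and 1 without HOXA9 OFF replicate 2. Between CAF-1 OFF and HOXA9 OFF 4 were called (14.8%, against 9.56% of all genes called higher), all higher in CAF-1 OFF, namely Dut, Gins2, Rrm2 and Cdc6, with log2 fold changes of 0.61 to 0.82. Without HOXA9 OFF replicate 2 the count was 2. The part of these replication gene levels in the histone values was not tested. Among 10 tested replication-independent histone genes, 1 passed in CAF-1 OFF against control, where 0.0321% of all genes did. It was H3f3b, which encodes H3.3, at a log2 fold change of 1.20 ± 0.10 and an edgeR FDR of 0.0221. That call was lost with the replicate block and without CAF-1 OFF replicate 2, control replicate 1 or control replicate 2, each of which left 0 of the list called. H1fx, which encodes a linker histone, was at 140 and 124.8 CPM under CAF-1 OFF, 40.4 and 39.2 CPM in control and 25.7 and 18.1 CPM under HOXA9 OFF. The groups did not overlap, and the log2 difference between CAF-1 OFF and control, 1.73 ± 0.17, was not called (edgeR FDR 0.0619). In HOXA9 OFF against control 2 of the 10 were called, H1fx lower, at a log2 fold change of -0.86 ± 0.18 (edgeR FDR 0.0123), and H2afy2, a macroH2A gene, higher, at 3.51 ± 0.63 (edgeR FDR 0.00813), and without control replicate 2 the count was 0. Of the 10, 5 were called between CAF-1 OFF and HOXA9 OFF, where 22.1% of all genes were, with H3f3b, H1fx, H2afx and H2afy higher in CAF-1 OFF and H2afy2 lower, and without CAF-1 OFF replicate 1 the count was 3.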

How the data were processed

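Bulk RNA-seq of 6 mouse iGMP libraries was used (CAF-1 OFF, control and HOXA9 OFF, 2 each), grouped by their titles. The authors prepared libraries with a directional kit, mapped them to mm9 (STAR) and tallied reads for every gene (HTSeq-count). What they deposited were raw counts for each gene symbol, not normalized, and 5 tally lines per file were kept out. Annotation and strand setting of the counting are not given in the sources used here, so overlapping genes are uncertain. Non-unique alignments came to 89.6 to 107 per 100 gene counts.

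The tools were edgeR 4.0.16 and limma 3.58.1 under R 4.3.3. After filterByExpr, 12460 genes were scaled by TMM (factors 0.954 to 1.03) and fitted with a quasi-likelihood model with 1 mean per group over all 6 libraries. A gene was called at a fold of at least 1.5 and a Benjamini-Hochberg FDR under 0.05 over all genes tested, the limits of the study. The F statistic gave the standard error (SE) of each log2 fold change. Levels are CPM on TMM-scaled library sizes, and sums use all 70 members. The tests were checked on simulated data. The labels do not say whether replicates came from separate cultures or subclones, so p-values measure the spread between these libraries, which may be technical. The 2 libraries of each group differed beyond sampling noise (chi-square per degree of freedom 21.4 to 28.9).

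Gene models, stem-loops and shared 50-base stretches were taken from NCBIM37 with GENCODE vM1, in which all 70 members had a model. Members named with values were those called in any comparison, the member of highest mean CPM in each type and cluster, and any tested member at 1 CPM or more with a log2 fold change of at least 1 in CAF-1 OFF against control and no overlap between libraries. Others were named after their values were seen. The members and gene lists were chosen with earlier results of these data known. Alternatives were DESeq2 1.42.0 (size factors, Wald test), library size alone, the edgeR exact test, other filters and limits, the 4 libraries compared, a replicate block and leaving out each library.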

Additional observations from a re-analysis of the deposited data

Results flagged for a closer look

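For 4 members the effect of CAF-1 OFF and the effect of HOXA9 OFF against the same control libraries differed, by the direct edgeR quasi-likelihood test between the groups. These were 4 of the 22 members tested, where 22.1% of all 12460 genes were called and 9.56% were called higher. The difference of the log2 fold changes was 1.206 for Hist1h2bc, 1.508 for Hist1h4i, 0.969 for Hist2h2be and 1.767 for Hist3h2a, each higher in CAF-1 OFF in 2 of 2 libraries. In neither group did any of the 4 pass the limits against control.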

How the results depend on the processing

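The log2 fold changes of the named members kept their direction and side of the threshold in 267 recomputed values, reversed in 9, and lost or gained significance in 5 each. In CAF-1 OFF against control, 2 members were called without an expression filter (Hist1h1c and Hist3h2a) and 1 by the DESeq2 Wald test or the edgeR exact test, settings that called 1.9%, 1.54% and 1.95% of all genes. In HOXA9 OFF against control, 1 was called without a fold minimum, and 0 to 1 when single libraries were left out. Between CAF-1 OFF and HOXA9 OFF, 2 of the 4 were called at a mean CPM of at least 5, where 3 members were tested and Hist1h2bc and Hist3h2a were not, 5 (Hist1h2ae added) at FDR under 0.1, 1 (Hist1h4i) at a 2-fold change with FDR under 0.01, and 2 to 4 when single libraries were left out. With the replicate number as a block, 0, 0 and 4 members were called, as without it, and whether the numbers pair the cultures is not stated. Deviations of same-numbered libraries correlated at -0.178, 0.033 and 0.456, and a crossed block for CAF-1 OFF against control, chosen after seeing the data, called 71 genes and 0 members. The summed CAF-1 OFF over HOXA9 OFF log2 ratio was 0.627 with library size alone against 0.55, and that of HOXA9 OFF over control, 0.075, was -0.006 with library size alone and -0.008 to 0.164 without single libraries. Without single libraries, signs reversed for Hist1h3c in CAF-1 OFF against control (-0.816 without CAF-1 OFF replicate 1 and -0.334 without control replicate 1, range -0.816 to 0.584), for Hist1h3c in HOXA9 OFF against control (-0.207 to 0.62) and between CAF-1 OFF and HOXA9 OFF (-0.985 to 0.413), for Hist4h4 in CAF-1 OFF against control (-0.078 without CAF-1 OFF replicate 1 and -0.228 without control replicate 1, range -0.228 to 1.572) and for Hist1h1c between CAF-1 OFF and HOXA9 OFF (-0.029 to 0.167). Hist1h3c in CAF-1 OFF against control was also at -0.002 with the replicate block and -0.014 with the crossed block. For replication-independent histone genes the calls for CAF-1 OFF against control were 1, 2 with library size alone, no filter, DESeq2, the exact test, 4 libraries or FDR under 0.1, 0 with the replicate block or 2-fold limits, and 0 to 2 without single libraries. In HOXA9 OFF they were 2, 1 at a mean CPM of at least 5 or 2-fold limits, and 0 to 2 without single libraries, and between CAF-1 OFF and HOXA9 OFF 5, 3 and 3 to 5. Machinery genes called in HOXA9 OFF were 1, 2 with library size alone, 4 without a fold minimum, 0 at 2-fold limits and 0 to 1 without single libraries, and between CAF-1 OFF and HOXA9 OFF 2, 4, 7, 0 and 0 to 3. Replication genes called in HOXA9 OFF were 4, 7 with library size alone, 11 without a fold minimum, 0 at 2-fold limits and 1 to 6 without single libraries, and between CAF-1 OFF and HOXA9 OFF 4, 11 without a fold minimum, 0 at 2-fold limits and 2 to 6. The cause of these changes was not tested. Of the 70 members 48 had too few counts to be tested, and the part of depth, dropped reads and RNA selection in this was not tested.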
